A study of Mus musculus with 8 samples.

Results

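The transcripts of 36 genes of the endoplasmic reticulum stress response, also called the unfolded protein response, were followed through 5 cell populations of the mouse colon, taken from the lamina propria (the loose tissue that lies below the epithelium). The members were chosen by name, with earlier results of these data known. Each of the 36 had 1 row among the 31053 gene rows of the deposited tables, so none was missing. By role they are 6 sensors and transcription factors (Ern1, Eif2ak3, Atf6, Xbp1, Atf4, Ddit3), 12 chaperones and their partners (Hspa5, Hsp90b1, Hspa13, Dnajb9, Dnajb11, Dnajc3, Hyou1, Calr, Canx, Sdf2l1, Manf, Creld2), 5 oxidoreductases (Pdia3, Pdia4, Pdia6, P4hb, Ero1l), 7 genes of protein degradation (Herpud1, Sel1l, Syvn1, Edem1, Derl1, Derl2, Derl3), 4 further targets of stress signalling (Trib3, Chac1, Asns, Ppp1r15a) and 2 genes of protein translocation (Sec61b, Ssr1).

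The libraries came from C57BL/6 mice of 10 to 12 weeks, kept free of specific pathogens on a normal diet, that were either wildtype or carried a serine-to-alanine mutation of the nuclear receptor RORgt, written S203AKI in the sample titles and S182A in the series text. Within each genotype the mice either drank plain water for 10 days (untreated) or 2% dextran sulfate sodium (DSS), a polymer that damages the lining of the colon, for 7 days and plain water for 3 days, and all were taken on day 10. There were 2 libraries in each of the 4 groups, which the series text calls independent biological replicates, and whether a library holds cells of 1 mouse or of several is not given in the sources used here. Digested colon cells passed over a Percoll gradient and a CD4+ T cell isolation kit. Droplet sequencing was loaded with about 10000 cells a library and read transcript 3' ends with unique molecular identifiers (UMIs). RORgt is the lineage factor of T cells that make interleukin-17, and the labels do not say in which cells the mutated gene is active.

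The endoplasmic reticulum folds the proteins that a cell secretes or carries on its surface. Unfolded protein there is sensed by 3 membrane proteins, IRE1 (encoded by Ern1), PERK (Eif2ak3) and ATF6. IRE1 splices the Xbp1 message into that of an active transcription factor, PERK slows translation and favours that of ATF4, and ATF6 is cut to release a factor. These factors raise chaperones, disulfide isomerases and the degradation machinery that moves misfolded protein back to the cytosol, and prolonged PERK signalling raises CHOP (Ddit3). Plasma cells, which secrete antibody, depend on XBP1 for their secretory machinery. UMI counts of 3' ends do not tell spliced from unspliced Xbp1 and do not show protein, cleavage or phosphorylation, so all values below are transcript levels.

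The promoters of these genes are known for short motifs to which these factors bind. They were searched on both strands in the 300 bases from 250 before to 50 after the transcription start in the RefSeq table of assembly GRCm38.p6, which holds 31 of the 36 members (1 of them under its newer symbol, matched by gene ID) and 27025 gene symbols in all. The endoplasmic reticulum stress element (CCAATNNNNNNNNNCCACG, where N is any base) was present in 9 members: Hspa5, Hsp90b1, Dnajc3, Calr, Canx, Creld2, Pdia6, Syvn1 and Derl3. It was present in 0.137% of all symbols with a promoter. Its variant ATTGGNCCACG was present in Dnajb11 and Herpud1, and in 0.0444% of all symbols. The core of the unfolded protein response element, TGACGTGG, was in none of the 31 and in 0.714% of all symbols. The amino acid response element bound by ATF4, TGATGNAAN, was in Herpud1, Trib3, Chac1 and Asns, and in 4.5% of all symbols. A match is a string of letters and not a shown binding site.

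The sequences of 7 promoters are given as examples of each motif that was found, from members that are described below. Hspa5 at chr2:34771840-34772139 (plus strand), Derl3 at chr10:75893148-75893447 (plus), Creld2 at chr15:88819396-88819695 (plus) and Syvn1 at chr19:6046326-6046625 (plus) hold the endoplasmic reticulum stress element, Herpud1 at chr8:94386179-94386478 (plus) holds its variant and the amino acid response element, and Chac1 at chr2:119350992-119351291 (plus) and Asns at chr6:7693160-7693459 (minus) hold the amino acid response element. Each is written 5′ to 3′ on the gene's strand, with the matched motif in capitals.
Hspa5: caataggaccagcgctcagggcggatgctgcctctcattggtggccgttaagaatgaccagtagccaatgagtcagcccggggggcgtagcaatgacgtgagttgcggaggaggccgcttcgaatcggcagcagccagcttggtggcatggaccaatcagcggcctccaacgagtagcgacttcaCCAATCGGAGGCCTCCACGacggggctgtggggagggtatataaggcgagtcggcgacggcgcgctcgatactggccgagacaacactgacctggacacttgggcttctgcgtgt
Derl3: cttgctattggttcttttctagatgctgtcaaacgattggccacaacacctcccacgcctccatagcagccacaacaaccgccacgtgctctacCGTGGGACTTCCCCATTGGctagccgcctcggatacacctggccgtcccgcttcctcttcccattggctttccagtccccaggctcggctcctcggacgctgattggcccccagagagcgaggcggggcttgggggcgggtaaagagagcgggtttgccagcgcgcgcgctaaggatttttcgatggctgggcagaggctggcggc
Creld2: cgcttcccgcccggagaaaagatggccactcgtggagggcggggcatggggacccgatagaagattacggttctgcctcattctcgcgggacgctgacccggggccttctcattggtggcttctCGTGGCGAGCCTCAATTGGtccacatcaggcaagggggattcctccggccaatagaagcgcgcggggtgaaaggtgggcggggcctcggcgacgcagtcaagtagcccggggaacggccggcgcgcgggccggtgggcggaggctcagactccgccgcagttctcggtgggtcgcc
Syvn1: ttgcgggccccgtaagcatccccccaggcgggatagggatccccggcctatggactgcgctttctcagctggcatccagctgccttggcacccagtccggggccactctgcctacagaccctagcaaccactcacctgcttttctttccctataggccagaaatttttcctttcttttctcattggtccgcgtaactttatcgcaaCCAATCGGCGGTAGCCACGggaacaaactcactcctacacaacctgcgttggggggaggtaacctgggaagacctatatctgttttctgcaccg
Herpud1: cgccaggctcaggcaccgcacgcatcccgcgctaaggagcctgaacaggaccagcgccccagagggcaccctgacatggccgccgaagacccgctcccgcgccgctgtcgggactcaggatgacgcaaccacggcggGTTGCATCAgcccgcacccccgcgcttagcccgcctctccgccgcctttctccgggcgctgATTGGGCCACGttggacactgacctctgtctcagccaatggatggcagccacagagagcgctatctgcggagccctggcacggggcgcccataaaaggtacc
Chac1: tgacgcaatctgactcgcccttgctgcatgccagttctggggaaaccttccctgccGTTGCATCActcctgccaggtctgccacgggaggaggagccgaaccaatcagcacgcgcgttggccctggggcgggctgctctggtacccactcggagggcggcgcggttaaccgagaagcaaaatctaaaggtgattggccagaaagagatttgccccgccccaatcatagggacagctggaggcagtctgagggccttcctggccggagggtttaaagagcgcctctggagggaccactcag
Asns: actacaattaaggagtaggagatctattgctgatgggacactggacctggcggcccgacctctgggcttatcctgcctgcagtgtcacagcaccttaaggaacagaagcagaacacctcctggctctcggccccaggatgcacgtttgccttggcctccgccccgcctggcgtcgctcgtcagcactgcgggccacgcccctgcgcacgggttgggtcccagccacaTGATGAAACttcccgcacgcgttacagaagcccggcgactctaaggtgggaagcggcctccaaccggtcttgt

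In Hspa5 the element ends 47 bases before the transcription start, and in Syvn1 26 bases before it. In Derl3 and Creld2 it lies on the opposite strand, between 156 and 138 and between 126 and 108 bases before the start. In Asns the amino acid response element lies between 23 and 15 bases before the start, and in Chac1 between 194 and 186 bases before it on the opposite strand.

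The 8 libraries held 34497509 to 46960005 UMIs and 100673 barcodes, of which 96721 had at least 400 genes and under 20% mitochondrial UMIs. Any pair of libraries shared 19 to 59 barcodes, at most 0.532% of the smaller one. Clustering without the members and without immunoglobulin genes gave 32 clusters, from which 43368 barcodes were taken as T-like, 3909 as B-like, 3023 as plasma-like, 9112 as fibroblast-like and 7258 as macrophage-like. Despite the CD4 kit, the libraries thus held many barcodes of other types. The 10 T cell markers summed to a median of 4411 CPM (a gene's UMIs scaled to the same total in every sum) in T-like sums, against 607 in plasma-like, 839 in fibroblast-like and 114 in macrophage-like sums. The 8 plasma cell markers summed to 109642 CPM in plasma-like sums and to 419 (177 to 1053 over libraries) in T-like, 988 in fibroblast-like and 1027 in macrophage-like sums. CPM here is taken over the UMIs outside the immunoglobulin genes, which took 45.6% to 49.8% of all UMIs of plasma-like cells. Of the 8 plasma cell markers, Jchain gave most of the plasma-like sum. It held 171408 of the 1678093 UMIs outside the immunoglobulin genes in untreated wildtype replicate 1. All 8 markers had a mean of at least 5 CPM in plasma-like sums. The median number of UMIs per cell, averaged over libraries, was 8568 in plasma-like, 5622 in fibroblast-like, 3351 in macrophage-like, 1942 in T-like and 1598 in B-like cells. In fibroblast-like cells the medians were 3957 to 5245 in untreated and 5546 to 7902 in DSS libraries. In macrophage-like cells they were 3079 to 4933 and 1956.5 to 2905. Untreated and DSS medians overlapped in plasma-like, T-like and B-like cells. The part of depth in the DSS results below was not tested.

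Together the 36 genes took the largest share of transcripts in plasma-like cells. They made up 2.96% ± 0.23 (SD, n = 8 libraries; 2.57% to 3.25%) of the UMIs outside the immunoglobulin genes there, 1.199% ± 0.118 in macrophage-like, 0.879% ± 0.088 in fibroblast-like, 0.557% ± 0.060 in T-like and 0.476% ± 0.038 in B-like cells. With the immunoglobulin genes in the denominator, the share in plasma-like cells was 1.54%. The lowest plasma-like library lay above the highest library of every other population. Of the 36 members, 31 had their highest mean CPM in plasma-like cells, and in 24 of these every plasma-like library lay above every library of the other 4 populations. Among 14412 genes with a mean of at least 1 CPM in 1 population, 12.8% were highest in plasma-like cells and 3.26% were separate in that way. The other 5 members were highest elsewhere: Ern1 in T-like, Canx in macrophage-like, and Ddit3, P4hb and Ppp1r15a in fibroblast-like cells.

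**Figure D1:**
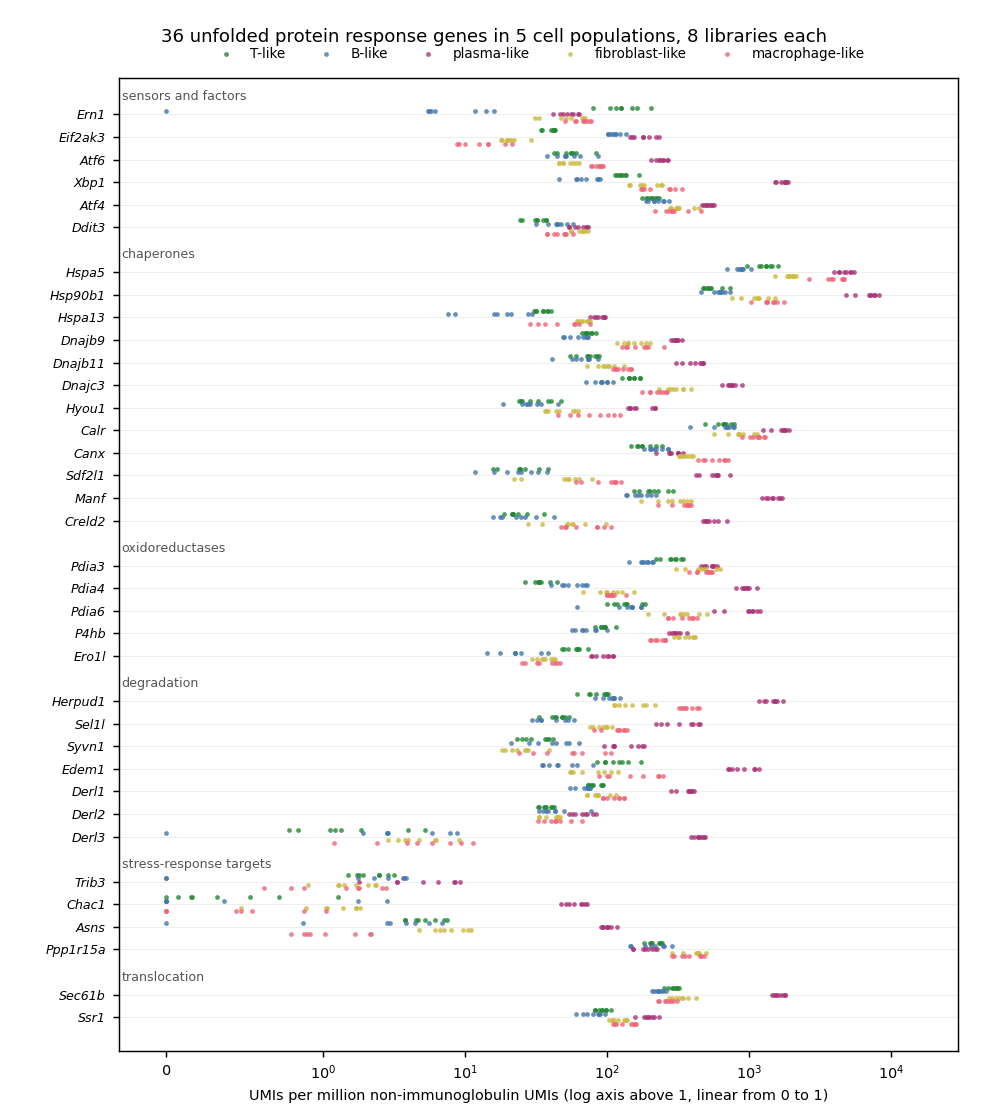
Level of each of the 36 genes in CPM (symmetric log axis) in the 5 populations, with 1 point per library (8 per population) and genes grouped by role. Plasma-like points lie to the right for most genes, while Ern1 is highest in T-like and Canx in macrophage-like cells.

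Against T-like cells, 33 members were higher and 1 was lower in plasma-like cells, of 35 tested (Trib3 was too low to be tested). The test was edgeR's quasi-likelihood test on UMI sums per library and population, with a term for the library and Benjamini-Hochberg adjustment over 11459 genes at 0.05. By that rule 68.3% of all tested genes differed, 34.2% higher and 34.1% lower. The median difference of the 35 members was 2.45 on the log2 scale, beside -0.05 over all genes. Against B-like cells 34 of 35 were higher (32.4% of all genes were, and 57.8% differed), with a member median of 2.92 beside 0.07 over all genes. Against fibroblast-like cells 32 were higher and 1 lower (76.3% of all genes differed, 33.1% higher and 43.2% lower), with a median of 2.17 beside -0.15. Against macrophage-like cells 32 were higher and 2 lower (73.4% of all genes differed, 36.1% higher and 37.3% lower), with a median of 1.55 beside -0.04. Most genes differed between cell types by this test, so the number of members called is read against those shares. The 4 comparisons share the plasma-like libraries.

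**Figure D2:**
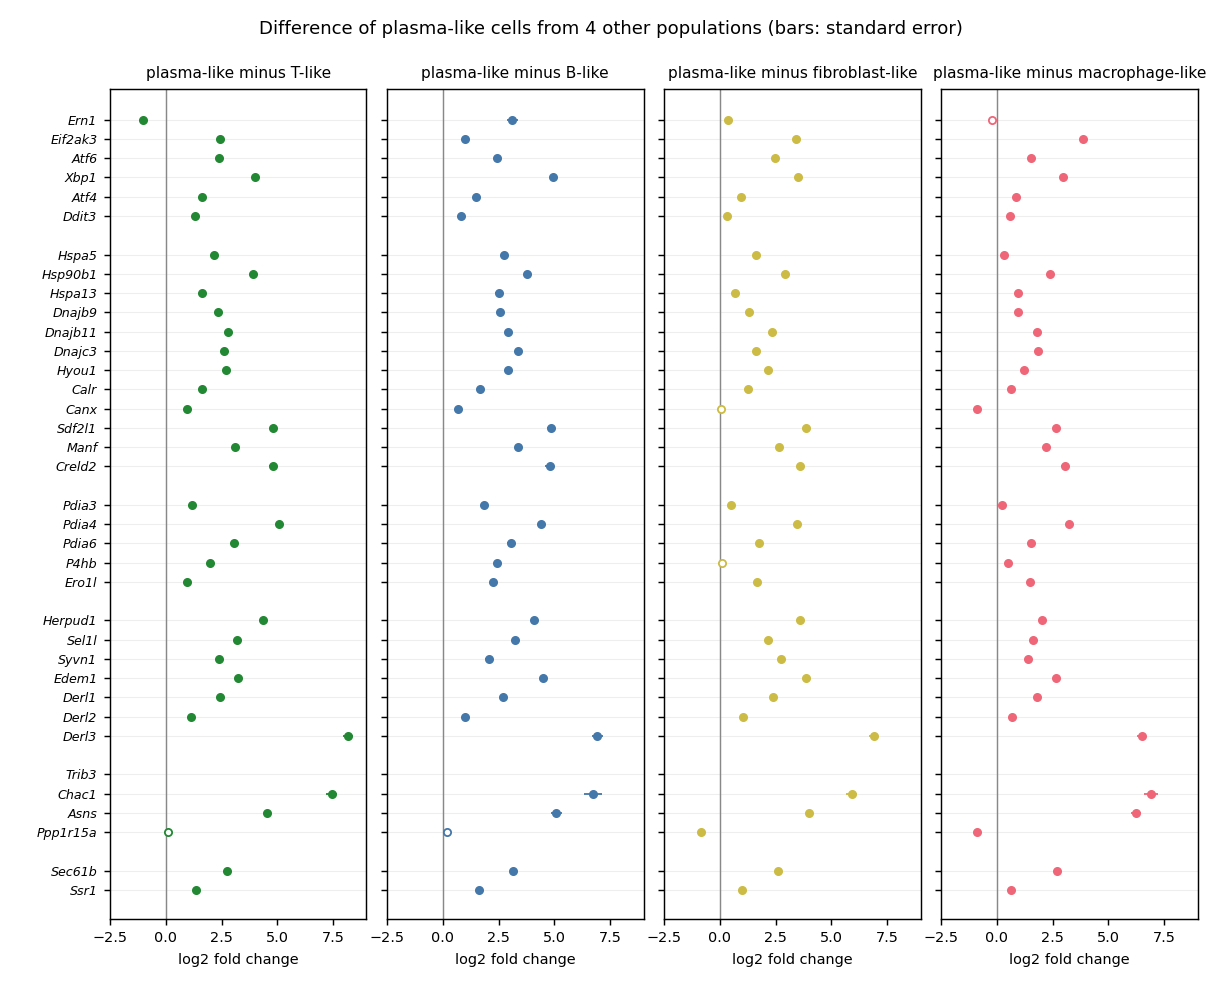
Difference of plasma-like cells from T-like, B-like, fibroblast-like and macrophage-like cells for each member (log2, point and standard error; filled where the adjusted p was under 0.05, open where not). Most points lie right of 0, with Derl3 and Chac1 farthest, and Ern1 lies at -1.01 against T-like cells.

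The sensors did not move together. Ern1, the gene of IRE1, was the 1 member that was lower in plasma-like than in T-like cells. Its level was lowest, median and highest at 79.7, 126 and 203.3 CPM over the 8 T-like sums and at 41.2, 53.9 and 63.2 CPM over the plasma-like sums, so the populations did not overlap. The difference was -1.01 ± 0.13 (log2, SE; edgeR adjusted p = 1.29e-08). Macrophage-like cells ran from 50.8 to 77.1 CPM and did not differ from plasma-like cells beyond error (-0.21 ± 0.14, edgeR adjusted p = 0.166), and B-like cells lay at 0 to 15.9 CPM. T-like cells held the highest mean Ern1 level of the 5 populations. Xbp1, whose message IRE1 splices, went the other way. It lay at 1529, 1772 and 1884 CPM in plasma-like cells (lowest, median, highest), at 114, 127 and 167 in T-like, at 142, 179 and 243 in fibroblast-like, at 174, 238 and 339 in macrophage-like and at 46.0, 68.4 and 89.6 in B-like cells. Every plasma-like library exceeded every other sum, and the difference from T-like cells was 4.02 ± 0.10 (adjusted p = 3.67e-30).

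Eif2ak3, the gene of PERK, had an order of its own. Plasma-like sums lay at 144, 179 and 234 CPM, B-like sums at 102, 111 and 135, T-like sums at 34.0, 41.9 and 43.3, fibroblast-like sums at 17.9, 20.04 and 29.0 and macrophage-like sums at 8.74, 13.5 and 21.4. The upper 3 populations did not overlap with each other, while fibroblast-like and macrophage-like sums did. When populations were instead cut by a marker gate, the fitted Eif2ak3 difference between plasma-like and B-like cells changed sign. Most barcodes of that gate's plasma class lay outside the plasma-like cluster. Relative to T-like cells, Eif2ak3 was higher in plasma-like cells (2.45 ± 0.10) and lower in fibroblast-like (-0.99 ± 0.10) and macrophage-like cells (-1.42 ± 0.12), all with edgeR adjusted p at or below 1.78e-11. Atf6 was at 205, 242 and 269 CPM in plasma-like and at 42.3, 55.8 and 83.0 CPM in T-like cells, without overlap (2.38 ± 0.09).

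The factors downstream of PERK differed less. Atf4 lay at 465, 514 and 568 CPM in plasma-like and at 177, 206 and 233 CPM in T-like cells, without overlap (1.61 ± 0.09). Ddit3, the gene of the death-linked factor CHOP, lay at 53.6, 65.2 and 73.4 CPM in plasma-like, 55.7, 67.0 and 73.7 in fibroblast-like and 24.4, 32.2 and 37.3 in T-like cells. Plasma-like and fibroblast-like cells thus overlapped over nearly their whole range for Ddit3. Their fitted difference of 0.30 ± 0.10 was called higher in plasma-like cells by edgeR, while mean CPM was higher in fibroblast-like cells. The fitted difference was not significant by DESeq2 and turned negative without TMM scaling. Ppp1r15a, whose product GADD34 restores translation after PERK signalling, was lower in plasma-like than in fibroblast-like (-0.83 ± 0.11) and macrophage-like cells (-0.90 ± 0.11) and did not differ from T-like cells beyond error (0.08 ± 0.11, edgeR adjusted p = 0.541).

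Chac1 and Asns, unlike Ppp1r15a, were far higher in plasma-like than in T-like cells. Chac1, an enzyme that breaks down glutathione, lay at 47.6, 61.9 and 71.7 CPM in plasma-like cells, with 805 UMIs in all. In the other populations it was close to the floor, with 41 UMIs in T-like, 63 in fibroblast-like, 13 in macrophage-like and 5 in B-like cells over the 8 libraries. Asns, asparagine synthetase, lay at 90.5, 99.4 and 118 CPM in plasma-like and at 3.75, 4.92 and 7.41 CPM in T-like cells (4.53 ± 0.15). Trib3, a pseudokinase, had 81 UMIs in plasma-like and 216 in T-like cells, or 1.79 to 9.22 and 1.49 to 3.14 CPM, ranges that overlapped.

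All 12 chaperones were higher in plasma-like than in T-like cells, with a median difference of 2.66. Creld2, a calcium-binding chaperone that is secreted on calcium loss, lay at 475, 516 and 696 CPM against 18.8, 21.7 and 35.9 CPM (4.804 ± 0.164). Sdf2l1, a partner of the luminal chaperone BiP, lay at 424, 583 and 737 CPM against 15.8, 24.4 and 38.3 CPM (4.79 ± 0.13). For both genes the lowest plasma-like library lay far above the highest T-like one. Hsp90b1, the luminal HSP90, lay at 4861, 7211 and 8322 CPM against 478, 524 and 737 CPM (3.92 ± 0.10). Hspa5, the gene of BiP itself, differed less, at 3971, 4745 and 5495 CPM against 976, 1322 and 1612 CPM (2.15 ± 0.10). Macrophage-like sums of Hspa5, at 2645, 4242 and 4669 CPM, overlapped with the plasma-like ones. Canx, the membrane-bound lectin chaperone, was highest in macrophage-like cells, at 437, 583 and 717 CPM against 222, 299 and 343 CPM in plasma-like cells (-0.88 ± 0.07).

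The 5 oxidoreductases, which form and rearrange disulfide bonds, were also all higher in plasma-like than in T-like cells. Pdia4 lay at 807, 946 and 1134 CPM against 26.3, 33.2 and 44.6 CPM (5.09 ± 0.11). P4hb, by contrast, did not differ between plasma-like and fibroblast-like cells beyond error (0.09 on the log2 scale). It is also a subunit of the enzyme that hydroxylates proline in collagen, and fibroblast-like cells had it at 294, 364 and 417 CPM against 275, 300 and 367 CPM in plasma-like cells.

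All 7 degradation genes were higher in plasma-like than in T-like cells, with a median difference of 3.19. Derl3, a channel component of the route back to the cytosol, differed most of all members, at 393, 448 and 492 CPM against 0.782, 1.27 and 5.24 CPM (8.17 ± 0.20, adjusted p = 5.3e-30). In T-like cells Derl3 was highest in DSS-treated wildtype replicate 2 (3.94 CPM) and DSS-treated S203AKI replicate 1 (5.24 CPM), the same libraries in which immunoglobulin genes took the most T-like UMIs (0.451% and 0.564%, against 0.0747% to 0.243% in the other 6). Herpud1, which recruits the ubiquitin ligase, lay at 1178, 1493 and 1754 CPM against 61.6, 89.5 and 101 CPM (4.36 ± 0.13). The 2 translocation genes were higher as well, Sec61b at 1446 to 1800 CPM against 252 to 320 CPM.

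Fibroblast-like and macrophage-like cells were compared with T-like cells in the same fit. In fibroblast-like cells 26 members were higher and 5 lower (83.2% of all genes differed, 47.4% higher and 35.8% lower), and in macrophage-like cells 29 were higher and 4 lower (77.8%, 42.2% and 35.6%). Ern1, Eif2ak3 and Ero1l, the oxidase that recharges disulfide isomerases, were lower than in T-like cells in both. In fibroblast-like cells P4hb rose most (1.89 ± 0.07), and in macrophage-like cells Herpud1 (2.32 ± 0.12) and Sdf2l1 (2.14 ± 0.12). Asns, which was higher in plasma-like cells, was lower in macrophage-like than in T-like cells (-1.71 ± 0.27), where it rested on 36 UMIs.

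Most related genes outside the 36 showed a like direction against T-like cells, beside 34.2% of all genes higher and 34.1% lower. Of 24 other genes of the translocon, signal peptidase and glycosylation, all 24 were higher in plasma-like than in T-like cells (median 2.10). Ssr4 (4.31), Sec11c (4.23), Rpn1 (3.30) and Ddost (3.24) led that list. Of 16 other folding enzymes 14 were higher and 2 lower, led by Fkbp11 (7.54) and Txndc5 (6.82), and of 21 vesicle transport genes 20 were higher, led by the cargo receptors Kdelr3 (6.10) and Lman1 (5.11). Of 16 other degradation genes 15 were higher and 1 lower, led by Edem2 (5.94), and of 19 tested targets of ATF4 and CHOP 17 were higher, among them Phgdh (3.68) and Atf5 (3.37). The 12 cytosolic heat shock genes, which answer to another stress pathway, were higher in 3 and lower in 6 cases, with a median of -0.36. Of 12 immediate early genes 5 were higher and 5 lower (median -0.13). Against fibroblast-like cells 1 was higher and 11 were lower (median -2.02), beside 33.1% and 43.2% of all genes. All 12 were higher in fibroblast-like than in T-like cells (median 1.75), beside 47.4% of all genes. Of 12 tested other sensors and modulators, 8 were higher than in T-like cells and none lower (median 0.68). Against B-like cells 7 were higher and 2 lower, against fibroblast-like cells 6 and 5, and against macrophage-like cells 6 and 6. The members' medians against T-like, B-like, fibroblast-like and macrophage-like cells stood at 1.35, 1.82, 1.38 and 0.68 when populations were cut by a marker gate, whose plasma class took 2873 barcodes of the plasma-like cluster, 2398 of the T-like and 860 of the B-like clusters and 3066 of clusters outside the 5 populations. The gate turned Hspa5, Pdia3 and P4hb lower than in macrophage-like cells.

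After DSS, 19 of the 36 members changed in at least 1 of T-like, plasma-like, fibroblast-like and macrophage-like cells, and 17 in none. Of all genes tested in at least 1 population, 41.6% were called in at least 1, and of the 33 members tested in all 4 populations 18 were, beside 49.7% of all such genes, so the members' share was near that of all genes. Over the 140 pairs of a tested member and a population, 28 were higher and 4 lower, beside 19.5% of all pairs called. Of all genes, 9.94% were higher and 9.09% lower in T-like cells, and 5.37% and 5.67% in plasma-like cells. In fibroblast-like cells 11% and 11.5% were, and in macrophage-like cells 11.4% and 12.1%. The direction of the members' calls was not tested against these shares. Each population was fitted on its own over the 8 libraries by edgeR, and the effect is DSS minus untreated averaged over both genotypes. The share of members called was below that of all genes in T-like cells (3 of 35, or 8.57%, beside 19% of all genes) and above it in plasma-like (6 of 36, beside 11%), fibroblast-like (12 of 36, beside 22.5%) and macrophage-like cells (11 of 33, beside 23.4%), with no test of that excess. Syvn1 and Edem1 were higher in all 4 populations, and the share of all genes with that pattern was not counted here. The summed share of the 36 genes in wildtype mice was 2.90% ± 0.04 untreated and 2.99% ± 0.25 after DSS in plasma-like cells (SD, n = 2 each), 0.539% ± 0.013 and 0.566% ± 0.058 in T-like, 0.889% ± 0.032 and 0.881% ± 0.044 in fibroblast-like and 1.24% ± 0.04 and 1.27% ± 0.05 in macrophage-like cells. In S203AKI mice it was 3.02% ± 0.19 and 2.91% ± 0.48, 0.558% ± 0.039 and 0.567% ± 0.138, 0.930% ± 0.129 and 0.815% ± 0.143, and 1.052% ± 0.181 and 1.24% ± 0.03 in the same order. These are sums over cells, and the share of cells with a transcript was not analysed here.

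**Figure D3:**
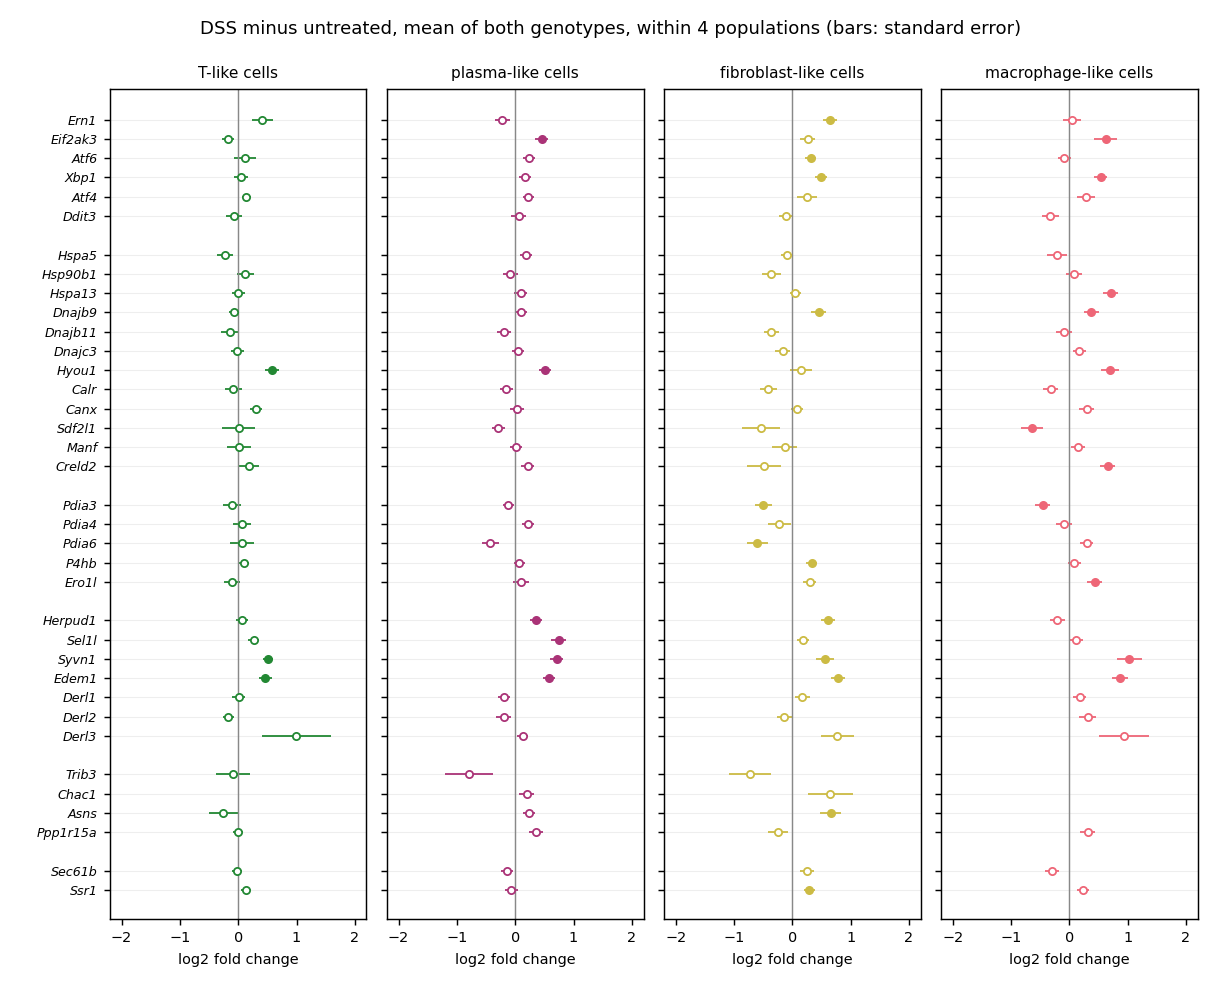
Difference between DSS-treated and untreated libraries, averaged over both genotypes, for each member in 4 populations (log2, point and standard error; filled where the adjusted p was under 0.05). Syvn1 and Edem1 are filled and right of 0 in each panel, and Pdia3 is left of 0 in fibroblast-like and macrophage-like cells.

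Syvn1 encodes HRD1, the ubiquitin ligase at the centre of the degradation route. In T-like cells it stood at 28.9 and 25.3 CPM in untreated wildtype, 23.1 and 26.7 in untreated S203AKI, 36.3 and 38.9 in DSS-treated wildtype and 41.4 and 37.8 CPM in DSS-treated S203AKI libraries. In plasma-like cells the same 4 pairs were 94.8 and 113, 111 and 111, 148 and 176, and 164 and 182 CPM. In fibroblast-like cells they were 23.2 and 18.1, 21.2 and 19.2, 26.7 and 27.9, and 39.2 and 26.5 CPM. The 4 DSS libraries lay above the 4 untreated ones in each of these 3 populations. In macrophage-like cells the pairs were 58.0 and 38.0, 23.8 and 29.8, 56.4 and 107, and 66.4 and 96.1 CPM, where 1 DSS library lay below the highest untreated one. The log2 differences were 0.51 ± 0.09 in T-like, 0.71 ± 0.11 in plasma-like, 0.56 ± 0.15 in fibroblast-like and 1.03 ± 0.21 in macrophage-like cells, with edgeR adjusted p of 0.0122, 0.000653, 0.0283 and 0.0075.

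Edem1 encodes a lectin that hands misfolded glycoproteins to that ligase. Its T-like levels were 109 and 97.2 CPM in untreated wildtype, 85.1 and 97.5 in untreated S203AKI, 127 and 141 in DSS-treated wildtype and 172 and 122 CPM in DSS-treated S203AKI libraries. In plasma-like cells the pairs were 818 and 757, 728 and 716, 923 and 1181, and 1096 and 1096 CPM. In fibroblast-like cells they were 66.8 and 56.0, 55.2 and 57.8, 106 and 94.5, and 119 and 86.7 CPM. Every DSS library again lay above every untreated one. Macrophage-like cells had 146 and 104, 87.6 and 99.4, 179 and 233, and 228 and 247 CPM, also without overlap. The differences were 0.47 ± 0.12, 0.58 ± 0.11, 0.78 ± 0.12 and 0.87 ± 0.14 in T-like, plasma-like, fibroblast-like and macrophage-like cells, with edgeR adjusted p of 0.0276, 0.00283, 0.00285 and 0.00327. Within single clusters, the groups of Edem1 were separate in each of the 5 T-like clusters, in the plasma-like cluster and in the 3 fibroblast-like clusters with at least 20 cells in every library. For Syvn1 they were separate in 4 of the 5 T-like clusters and in the plasma-like cluster, and in none of those 3 fibroblast-like clusters. Fibroblast-like clusters 9 and 14 held only 3.04% and 3.17% of 756 fibroblast-like cells in DSS-treated S203AKI replicate 2. In DSS-treated wildtype replicate 1 they held 14.2% and 12.8% of 226. Their values in these libraries thus rest on few cells.

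**Figure D4:**
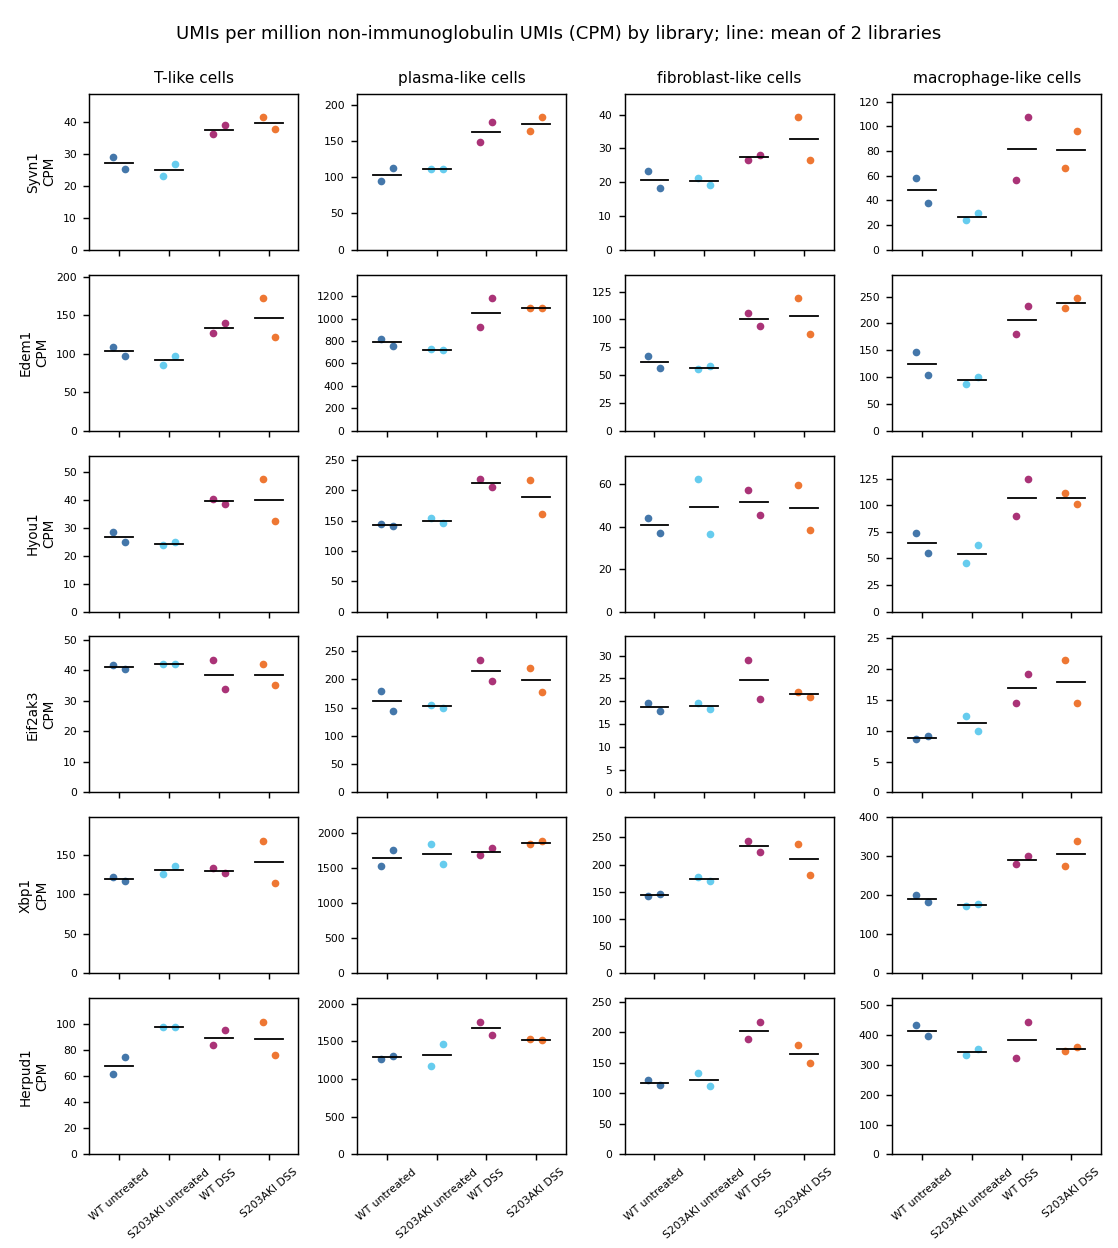
Level of Syvn1, Edem1, Hyou1, Eif2ak3, Xbp1 and Herpud1 in CPM per library in 4 populations, by group (2 libraries each; line, mean of 2). For Edem1 the DSS-treated libraries lie above the untreated ones in every population.

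In T-like cells, where 9.94% of all genes rose, the third member that rose was Hyou1, a large luminal chaperone. It stood at 28.5 and 25.1, 24.0 and 24.8, 40.4 and 38.5, and 47.4 and 32.4 CPM in untreated wildtype, untreated S203AKI, DSS-treated wildtype and DSS-treated S203AKI libraries. The DSS libraries lay above all untreated ones, by 0.57 ± 0.12 (edgeR adjusted p = 0.0173). None of the 6 sensors and factors was called in T-like cells. Ern1 differed by 0.42 ± 0.17 (adjusted p = 0.121), Eif2ak3 by -0.17 ± 0.10 (0.263), Atf6 by 0.12 ± 0.18, Xbp1 by 0.05 ± 0.12, Atf4 by 0.13 ± 0.08 and Ddit3 by -0.08 ± 0.14. The member median was 0.02, beside 0.01 over all genes. T-like cells here leave out T cell clusters 4 and 7, which had Foxp3 among their leading genes. These clusters held 4.66% to 5.95% and 2.05% to 2.63% of the barcodes used in untreated libraries. In DSS libraries they held 9.68% to 11.8% and 5.78% to 9.11%. The 10 T cell markers summed to 4449 to 4933 CPM in untreated and 3678 to 4373 CPM in DSS T-like sums, and 6 squamous epithelial markers to 1.21 to 2.36 and 2.77 to 10.3 CPM, and the part of either in the result was not tested. The count of 3 was 5 without TMM scaling (20% of all genes called), 5 with populations cut by the marker gate (24.7%), 6 with T cell clusters 4 and 7 added (24.8%), 6 when low-count genes were kept (16.5%) and 7 with a block of libraries whose titles carry neighbouring numbers (30.6%). It also changed when single libraries were left out. The count was 0 without untreated wildtype replicate 2 or untreated S203AKI replicate 1, and 1 without untreated S203AKI replicate 2 or DSS-treated wildtype replicate 2. It was 5 without DSS-treated S203AKI replicate 2. The shares of all genes called in these fits are not given here.

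In plasma-like cells 6 members rose (5.37% of all genes did) and none fell, and 4 of the 6 were degradation genes. Sel1l, the adaptor of the HRD1 ligase, rose most, from 323 and 222 (untreated wildtype) and 241 and 263 (untreated S203AKI) to 391 and 439 (DSS-treated wildtype) and 401 and 452 CPM (DSS-treated S203AKI). The groups did not overlap, and the difference was 0.74 ± 0.13 (edgeR adjusted p = 0.00153). Herpud1 rose from 1272, 1310, 1178 and 1468 CPM to 1754, 1591, 1527 and 1517 CPM (0.35 ± 0.10, adjusted p = 0.0367), and Hyou1 from 145, 141, 154 and 146 CPM to 218, 206, 217 and 161 CPM (0.51 ± 0.10, adjusted p = 0.00455). Neither gene overlapped between untreated and treated libraries.

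Among the sensors, Eif2ak3 was the 1 called in plasma-like cells. It stood at 179 and 144 CPM in untreated wildtype, 155 and 149 in untreated S203AKI, 234 and 197 in DSS-treated wildtype and 220 and 178 CPM in DSS-treated S203AKI libraries. The lowest DSS library lay just under the highest untreated one, and the other 3 lay above all untreated libraries. The difference was 0.46 ± 0.11 (edgeR adjusted p = 0.0136), and it exceeded that in T-like cells by 0.62 ± 0.13 in a fit of both populations (adjusted p = 0.0359, the 1 member of 36 that differed, beside 0.159% of all genes, 0.106% higher). That call was lost in 6 of 9 alternatives, where adjusted p ranged from 0.0207 to 0.251. Xbp1, at 1529, 1758, 1838 and 1559 CPM untreated and 1682, 1786, 1840 and 1884 CPM after DSS, was not called (0.17 ± 0.10, adjusted p = 0.287), nor were Ern1 (-0.22 ± 0.13), Atf6 (0.24 ± 0.10), Atf4 (0.23 ± 0.09) and Ddit3 (0.06 ± 0.12). Neutrophil markers summed to 0.596 to 1.85 CPM in untreated and 2.91 to 4.78 CPM in DSS plasma-like sums, and columnar epithelial markers to 195 to 238 and 147 to 193 CPM (7 markers, Krt20 at 0). The part of these in the result was not tested. With populations cut by the marker gate none of the 6 calls held, and Eif2ak3 (-0.13) and Herpud1 (-0.21) changed sign. In that fit 8 members were called, all of them lower, beside 10.6% of all genes called. The gate's plasma class took 2873 barcodes of the plasma-like cluster, 2398 of T-like and 860 of B-like clusters, and 3066 outside the 5 populations. Most of its barcodes thus lay outside the plasma-like cluster, and the part of this in the changes was not tested.

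Fibroblast-like cells had 10 members higher and 2 lower after DSS, beside 11% and 11.5% of all genes. Ern1 rose from 55.5 and 47.2 (wildtype) and 30.9 and 33.1 CPM (S203AKI) to 67.0 and 51.1 and to 67.6 and 69.7 CPM (0.65 ± 0.11, edgeR adjusted p = 0.00575), with 1 untreated library above the lowest treated one. Xbp1 rose from 142, 146, 177 and 170 CPM to 243, 224, 238 and 181 CPM without overlap (0.49 ± 0.10, adjusted p = 0.0127). Herpud1 rose from 121, 113, 133 and 111 CPM to 189, 216, 179 and 150 CPM, also without overlap (0.62 ± 0.12, adjusted p = 0.00771). The sensor Atf6 (0.31 ± 0.10), the co-chaperone Dnajb9 (0.45 ± 0.12), P4hb (0.33 ± 0.10), Asns (0.66 ± 0.18) and the translocon-associated Ssr1 (0.29 ± 0.09) were called as well, with adjusted p from 0.0285 to 0.0498. Of these, Asns rested on few counts, at 4.70, 6.65, 6.11 and 7.03 CPM untreated and 9.66, 7.96, 10.4 and 11.1 CPM after DSS, and did not overlap.

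The 2 members that fell in fibroblast-like cells were both disulfide isomerases. Pdia6 stood at 369, 444, 506 and 350 CPM untreated and at 328, 250, 334 and 195 CPM after DSS (-0.60 ± 0.18, edgeR adjusted p = 0.0422). Pdia3, which works with calnexin and calreticulin on glycoproteins, stood at 486, 586, 624 and 495 CPM untreated and at 461, 357, 434 and 305 CPM after DSS (-0.50 ± 0.14, adjusted p = 0.0335). All 4 DSS libraries lay below all 4 untreated ones for both. Eif2ak3, Atf4 and Ddit3 were not called in fibroblast-like cells, at 0.27 ± 0.13, 0.25 ± 0.18 and -0.11 ± 0.12.

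The makeup of the fibroblast-like population changed with treatment. The largest cluster held 52.3% to 59.0% of untreated and 3.04% to 23.0% of DSS fibroblast-like cells, and a cluster led by Il11 and Cxcl13 held 0.0533% to 0.778% and 26.1% to 65.0%. Without the latter, 9 members were higher and 3 lower, and the share of all genes called in that fit is not given here. Within the largest cluster, Xbp1, Edem1 and Herpud1 remained separate between untreated and DSS libraries, while Syvn1 was not. That cluster held 3.04% of 756 fibroblast-like cells in DSS-treated S203AKI replicate 2 and 14.2% of 226 in DSS-treated wildtype replicate 1. These values thus rest on few cells, and the other called members are not given for this cluster. Plasma cell markers summed to 341 to 649 CPM in untreated and 1327 to 2787 CPM in DSS fibroblast-like sums (8 markers, none at 0). Of these 8, 7 had a higher mean after DSS. Jchain alone held 4354 of the 1760497 UMIs outside the immunoglobulin genes in DSS-treated wildtype replicate 1. Macrophage markers summed to 516 to 778 and 1080 to 1406 CPM (12 markers). Mural or smooth muscle markers summed to 1012 to 1306 and 252 to 900 CPM, and 6 stress genes to 13298 to 13653 and 7255 to 7950 CPM. Neutrophil, dendritic cell and ILC or NK markers, the highest sum at 125 CPM, also separated the treatments. The part of these transcripts in the result was not tested. With low-count genes kept, 8 members were higher and 7 lower in fibroblast-like cells (19.1% of all genes called), and with the block of neighbouring title numbers 11 and 7 (29.4%). The count of 12 fell to 3 without untreated S203AKI replicate 1, to 4 without untreated wildtype replicate 1 or 2, untreated S203AKI replicate 2 or DSS-treated wildtype replicate 2, and to 6 without DSS-treated S203AKI replicate 2. The shares of all genes called in these fits are not given here. Ern1, Herpud1 and Edem1 kept their call in all 16 alternatives.

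Macrophage-like cells had 9 members higher and 2 lower after DSS, beside 11.4% and 12.1% of all genes. Besides Syvn1 and Edem1, the chaperone Hspa13 rose from 44.1, 36.3, 28.6 and 32.6 CPM to 59.5, 58.6, 63.4 and 75.6 CPM (0.71 ± 0.13, edgeR adjusted p = 0.00487). Hyou1 rose from 74.1, 55.1, 45.3 and 62.4 CPM to 89.5, 124, 111 and 101 CPM (0.70 ± 0.16, adjusted p = 0.0113), and Creld2 from 60.1, 51.3, 47.3 and 50.5 CPM to 84.3, 106, 94.8 and 84.4 CPM (0.66 ± 0.13, adjusted p = 0.00566). Xbp1 rose from 200, 183, 174 and 177 CPM to 280, 300, 275 and 339 CPM (0.54 ± 0.11, adjusted p = 0.00821). None of these 4 genes overlapped between untreated and DSS libraries. Eif2ak3 rose from a low level, 8.74, 9.07, 12.5 and 9.94 CPM to 14.5, 19.2, 21.4 and 14.5 CPM (0.62 ± 0.20, adjusted p = 0.0458). Ero1l (0.43 ± 0.12) and Dnajb9 (0.38 ± 0.13) were also called.

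Sdf2l1 and Pdia3 fell in macrophage-like cells. Sdf2l1 stood at 106, 111.7, 126 and 113 CPM untreated and 86.4, 65.3, 116 and 60.8 CPM after DSS (-0.65 ± 0.19, edgeR adjusted p = 0.0311), where 1 DSS library lay within the untreated range. Pdia3 stood at 548, 537, 521 and 517 CPM untreated and 433, 428, 497 and 377 CPM after DSS, without overlap (-0.45 ± 0.13, adjusted p = 0.0251). Hspa5, at 4550, 4669, 2645 and 4594 CPM untreated and 3824, 4581, 3592 and 3934 CPM after DSS, was not called (-0.21 ± 0.17). Its lowest value was in untreated S203AKI replicate 1. Ern1 (0.05 ± 0.15), Atf6 (-0.08 ± 0.11), Atf4 (0.28 ± 0.16) and Ddit3 (-0.33 ± 0.14) were not called.

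Without TMM scaling the median of all genes after DSS in macrophage-like cells moved from 0.01 to 0.17, and the members called became 17 higher and none lower, beside 28% of all genes called and 20.9% higher in that fit. Mast cell markers summed to 4.77 to 25.7 CPM in untreated and 81.3 to 338 CPM in DSS macrophage-like sums, and the 12 macrophage markers to 32927 to 45245 and 27362 to 28928 CPM. The 6 neutrophil markers summed to 50.4 to 59.7 CPM in untreated and 63.6 to 69.9 CPM in DSS libraries, and the 6 squamous markers to 0 to 0.55 and 1.03 to 16.6 CPM, with Trp63 at 0. The part of these in the result was not tested. Of the 11 macrophage-like calls, 3 were left without untreated wildtype replicate 2, 5 without untreated S203AKI replicate 1 or DSS-treated wildtype replicate 2, 6 without untreated wildtype replicate 1 or untreated S203AKI replicate 2, 7 without DSS-treated wildtype replicate 1 or DSS-treated S203AKI replicate 2, and 10 without DSS-treated S203AKI replicate 1. How many of the calls among all genes were left in these fits is not given here. Hspa13, Creld2 and Edem1 kept their call in all 15 alternatives.

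The cytosolic heat shock genes moved in the same comparison and the other way. Of 12 genes, 5 fell in T-like, 9 in plasma-like, 10 in fibroblast-like and 12 in macrophage-like cells after DSS, beside 9.09%, 5.67%, 11.5% and 12.1% of all genes, and none rose. In wildtype mice alone, 4 fell in fibroblast-like cells and none was called in the other 3 populations, with a median of 0.23 in T-like, -0.31 in plasma-like, -0.54 in fibroblast-like and -0.45 in macrophage-like cells. Their summed level was highest in untreated S203AKI libraries: 24980 and 24988 CPM in T-like cells against 9047 to 14455 CPM in the other 6 libraries, and 30116 and 33130 CPM in macrophage-like cells against 7100 to 16429 CPM. Hspa1a alone stood at 1586 and 432 CPM in those T-like sums against 63.9 to 255 CPM elsewhere. Among the chaperones of the endoplasmic reticulum, Hspa5 in T-like cells stood at 1318 and 1612 CPM in these libraries against 976 to 1450 CPM in the others, so that the 2 sets overlapped. Dnajb9 stood at 78.4 and 83.3 CPM against 66.7 to 77.4 CPM, without overlap. The part of this pattern in the members' differences was not tested.

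**Figure D5:**
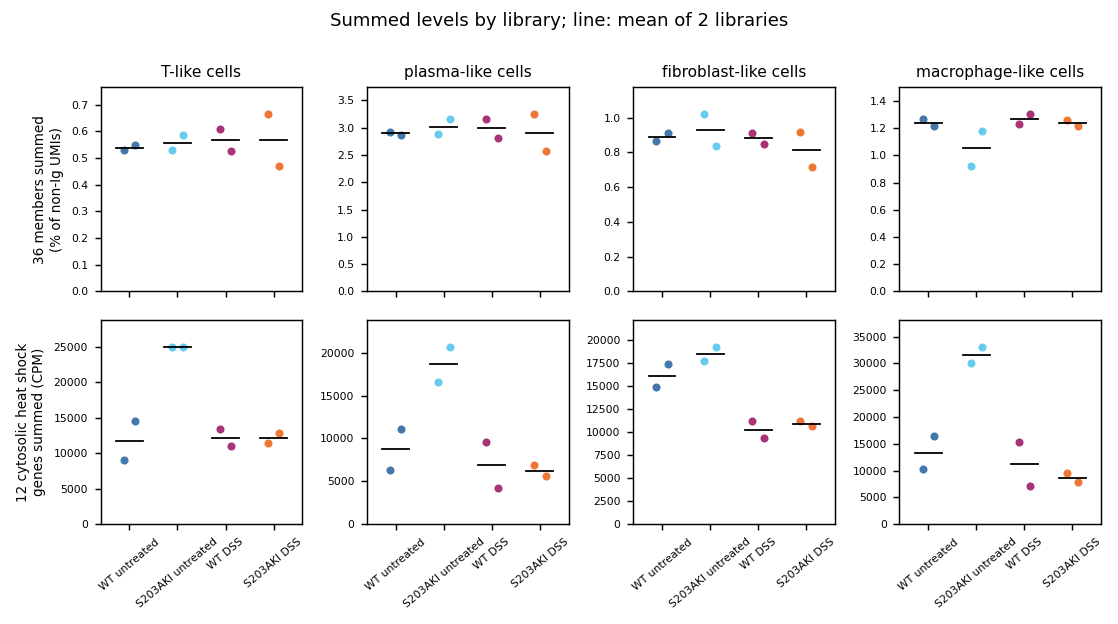
Upper panels, the 36 members summed as a percent of UMIs outside immunoglobulin genes; lower panels, 12 cytosolic heat shock genes summed in CPM, per library in 4 populations. The heat shock sum is highest in untreated S203AKI libraries in every population. In fibroblast-like cells they lie close to untreated wildtype libraries (17688 and 19284 against 14886 and 17387 CPM). There all untreated libraries lie above all DSS ones (9390 to 11164 CPM). The member sum shows no such order by genotype, and in macrophage-like cells it is lowest in the untreated S203AKI libraries.

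In wildtype mice alone, the comparison the series text names, fewer members passed. None was called in T-like cells (0.0335% of all genes were) and none in macrophage-like cells (0.444%), by edgeR. At an unadjusted p under 0.05, 4 of 35 members differed in T-like cells, beside 18.8% of all genes, and 9 of 33 in macrophage-like cells, beside 17.8%. DESeq2 called no member in either population. With low-count genes kept, edgeR called 1 member in T-like cells (4.83% of all genes) and 1 in macrophage-like cells (3.31%), and with the block of neighbouring title numbers it called 2 in macrophage-like (5.94%) and 6 in plasma-like cells (4.08%). In plasma-like cells Hyou1 (0.63 ± 0.15, edgeR adjusted p = 0.0459) and Syvn1 (0.72 ± 0.16, adjusted p = 0.0363) were higher (0.969% of all genes differed and 0.49% were higher), and in fibroblast-like cells Xbp1 (0.68 ± 0.15, adjusted p = 0.0374) and Herpud1 (0.78 ± 0.17, adjusted p = 0.0326) were (4.17% and 2.58%). Both plasma-like calls were lost by DESeq2 and without untreated wildtype replicate 1 or 2, untreated S203AKI replicate 1 or 2, or DSS-treated wildtype replicate 2, and that of Hyou1 also without DSS-treated wildtype replicate 1. No fibroblast-like call remained when any 1 untreated library or DSS-treated wildtype replicate 2 was left out. How many of the calls among all genes were left in these fits is not given here.

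The response to DSS was set against that of T-like cells in joint fits. In fibroblast-like cells 5 members differed from T-like cells (8.89% of all genes did, 4.53% higher and 4.36% lower). The difference of the 2 effects was higher for Asns (0.97), Dnajb9 (0.52) and Eif2ak3 (0.45) and lower for Pdia6 (-0.65) and Hsp90b1 (-0.49). Only 1 of these 5 calls was left without untreated wildtype replicate 2 or untreated S203AKI replicate 1, 2 without DSS replicate 2 of either genotype, and 3 without untreated S203AKI replicate 2 or DSS-treated S203AKI replicate 1. In macrophage-like cells 4 members differed (7.33%), all higher as were 3.04% of all genes: Eif2ak3 (0.80), Hspa13 (0.69), Ero1l (0.52) and Xbp1 (0.49). Of these 4 calls, 1 was left without untreated S203AKI replicate 2 or DSS-treated S203AKI replicate 2, and 2 without untreated wildtype replicate 2, untreated S203AKI replicate 1 or either DSS-treated wildtype library. The effect on Eif2ak3 exceeded that in T-like cells in all 3 populations, a call lost in 6 of 9 alternatives in plasma-like, 6 of 9 in fibroblast-like and 0 of 9 in macrophage-like cells, and these comparisons share the T-like libraries. No member of the HRD1 group (Syvn1, Edem1, Sel1l) differed between T-like cells and another population by this test. How many of the calls among all genes were left in the fits without 1 library is not given here.

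The lists of related genes held members that moved after DSS in each population. Of all genes, 9.94%, 5.37%, 11% and 11.4% rose and 9.09%, 5.67%, 11.5% and 12.1% fell in T-like, plasma-like, fibroblast-like and macrophage-like cells. Among other sensors and modulators 3 of 11 rose in T-like cells, Creb3l2 (0.60), Atf6b (0.50) and Ppp1r15b (0.42), and none fell. In plasma-like cells 3 of 11 rose as well, Creb3l2 (0.55), Ppp1r15b (0.53) and the protease Mbtps1 (0.48), which cuts ATF6. In macrophage-like cells Creb3l2 (0.97) and Ppp1r15b (0.68) were again among 3 of 12 that rose, and in fibroblast-like cells 2 of 12 rose and 1 fell. Other folding enzymes were mixed, with 3 higher and 5 lower of 14 in macrophage-like cells (Ppib -1.14, Prdx4 -1.04) and 4 higher and 1 lower of 15 in plasma-like cells (Txndc11 0.56, Ero1lb 0.54). Of the translocon, signal peptidase and glycosylation genes, 0 rose and 2 fell of 24 in T-like, 2 and 2 in plasma-like, 3 and 1 in fibroblast-like and 5 and 5 in macrophage-like cells. Of 16 other degradation genes, 2 rose and 1 fell in T-like, 3 and 0 in plasma-like and 3 and 0 in fibroblast-like cells. Macrophage-like counts of that list are not given here. Of the vesicle transport genes 3 rose and 1 fell of 20 in T-like, 3 and 0 of 21 in plasma-like, 4 and 0 of 21 in fibroblast-like and 7 and 1 of 20 in macrophage-like cells, the coat subunits Sec23a (1.16) and Sec23b among them. Of the targets of ATF4 and CHOP, 2 rose and 1 fell of 18 in T-like, 4 and 1 of 17 in plasma-like, 5 and 2 of 20 in fibroblast-like and 2 and 2 of 17 in macrophage-like cells. Among them Atf3 fell in all 4 populations (-1.78, -1.11, -1.79 and -1.76 in T-like, plasma-like, fibroblast-like and macrophage-like cells), and Slc7a11, the cystine carrier, rose in T-like (1.97), fibroblast-like (1.88) and macrophage-like cells (1.44).

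Between S203AKI and wildtype libraries no member was called in any of the 4 populations, untreated or after DSS, by edgeR with the filter on low counts or by DESeq2. Without that filter edgeR called 2 members in untreated T-like (1.06% of all genes), 1 in fibroblast-like (0.402%) and 1 in macrophage-like cells (0.655%). Among all genes, with the filter, edgeR called 0.0478% in untreated plasma-like cells and 0% in the 7 other comparisons. In untreated mice, 2 members in T-like, 0 in plasma-like, 1 in fibroblast-like and 4 in macrophage-like cells had an unadjusted p under 0.05, beside 5.51%, 4.26%, 3.74% and 6.83% of all genes. After DSS 0, 1, 0 and 0 members had, beside 1.56%, 3.15%, 3.25% and 1.84%. The lowest was that of Ern1 in untreated fibroblast-like cells, at 30.9 and 33.1 CPM in S203AKI against 55.5 and 47.2 CPM in wildtype libraries. The difference was -0.75 ± 0.16 (edgeR adjusted p = 1). After DSS both S203AKI libraries, at 67.6 and 69.7 CPM, lay above both wildtype libraries, at 67.0 and 51.1 CPM, and Ern1 was not called. In untreated T-like cells Herpud1 stood at 97.5 and 97.6 CPM in S203AKI and 61.6 and 74.3 CPM in wildtype libraries (0.52 ± 0.15, adjusted p = 0.739). In untreated macrophage-like cells 6 of 33 members had a positive difference, and the member median was -0.20 beside 0.01 over all genes. All 7 degradation genes had negative differences there, from -0.86 to -0.18, none of them called. Of these, Syvn1 (-0.86 ± 0.31) and Sel1l (-0.59 ± 0.16) had adjusted p of 0.659 and 0.606. With 2 libraries per group these p-values measure only the spread between libraries, and a difference that misses the threshold is not shown to be absent.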

How the data were processed

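Per the labels' protocols, the deposited data are raw UMI counts per gene and barcode, 1 table per library, made by the authors with Cell Ranger 3.1.0 and Seurat 4.0.1 on build mm10, per the submitters' processing notes. Rows of 7 tables carry numbers and were named from the deposited gene list. Barcodes with at least 400 genes and under 20% mitochondrial UMIs were clustered (2000 variable genes without the members, related lists and immunoglobulin genes, 30 principal components, 15 neighbours, Leiden resolution 1; leidenalg 0.10.2, igraph 0.11.9), and clusters were named from marker lists with thresholds set after the clusters were seen. Clusters that mixed markers, were cycling or had over 30% doublet calls were left out, among them Foxp3-led and cycling T cell clusters and a cycling plasma cell cluster. Only 4 fibroblast-like, 5 T-like and single plasma-like, macrophage-like and B-like clusters were used, and no sum held under 152 cells.

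Counts were summed per library and population, immunoglobulin genes were left out, and edgeR 4.0.16 quasi-likelihood tests (TMM scaling, filterByExpr, Benjamini-Hochberg over all genes, 0.05) were run in R 4.3.3, after tests on simulated data. The SE is the log2 difference over the square root of F. Alternatives were DESeq2 1.42.0, no filter, no TMM, immunoglobulin genes kept, doublets left out, a marker gate, each library left out, no library term, the authors' 27420 listed cells and, added after seeing the data, blocks of libraries whose titles carry neighbouring numbers, T cell clusters added and a fibroblast-like cluster left out. Each block of neighbouring numbers held only untreated or only DSS libraries and cannot adjust the DSS effect for what the numbers stand for. Replicate numbers only name libraries.

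The 36 members and the lists of related genes were chosen with earlier results of these data known. Values are given for the 6 sensors and factors and for at most 8 members per direction with the largest called difference in a comparison, and at most 4 genes per related list. Hspa5, Hsp90b1, Trib3, Ppp1r15a and the members named as exceptions were named after their values were seen. Promoters come from RefSeq tables of GRCm38.p6, which held no entry for Atf6, Hspa13, Hyou1, Manf and Derl1.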

Additional observations from a re-analysis of the deposited data

Results flagged for a closer look

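The effect of DSS, averaged over both genotypes, differed from that in T-like cells for the following genes by an edgeR term for the difference of the 2 effects, adjusted over 13211 genes. All values are log2 differences of effects, from 4 untreated and 4 DSS libraries per population.

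In plasma-like cells Eif2ak3, the gene of the sensor PERK, differed by 0.62 ± 0.13 (adjusted p = 0.0359), a call lost in 6 of 9 alternatives. Every T-like sum lay between 34.0 and 43.3 CPM, and no order between untreated and treated libraries was seen there.

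In fibroblast-like cells Asns, asparagine synthetase, differed by 0.97 (adjusted p = 0.0154), on levels under 12 CPM. The co-chaperone Dnajb9 differed by 0.52 (adjusted p = 0.0237), Eif2ak3 by 0.45 (adjusted p = 0.0439), Hsp90b1 by -0.49 (adjusted p = 0.0356) and Pdia6 by -0.65 (adjusted p = 0.0181). Of 9 alternatives, the call was lost in 6 for Eif2ak3 and Hsp90b1, in 3 for Dnajb9 and Pdia6 and in 2 for Asns. Neither Eif2ak3 nor Hsp90b1 was called within fibroblast-like or T-like cells alone.

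In macrophage-like cells Eif2ak3 differed by 0.80 (adjusted p = 0.00534), Hspa13 by 0.69 (adjusted p = 0.0105), Ero1l by 0.52 (adjusted p = 0.0465) and Xbp1 by 0.49 (adjusted p = 0.0397). Eif2ak3 held in all 9 alternatives. Ero1l was lost in 8 of 9, Xbp1 in 6 of 9 and Hspa13 in 2 of 9.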

How the results depend on the processing

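The comparisons of plasma-like with other cells kept 32 to 35 members called when any 1 library was left out. Leaving out 1 library gave 0 to 5 members called after DSS in T-like, 4 to 8 in plasma-like, 3 to 18 in fibroblast-like and 3 to 11 in macrophage-like cells. In wildtype alone it gave 0 to 2 in plasma-like and 0 to 3 in fibroblast-like cells. For the differences from T-like cells it gave 0 to 1, 1 to 7 and 1 to 6 in plasma-like, fibroblast-like and macrophage-like cells. The shares of all genes called in the fits without 1 library are not given here.

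The T-like count of 3 after DSS became 6 without the filter (16.5% of all genes called), 5 without TMM (20%), 5 with the marker gate (24.7%) and 6 with T cell clusters 4 and 7 added (24.8%). In wildtype alone the plasma-like count of 2 became 0 by DESeq2, with immunoglobulin genes kept, without TMM and with the gate, and the fibroblast-like count became 4 without the cluster led by Il11 and Cxcl13 (4.01%). Without the filter 1 member was called in wildtype T-like (4.83% of all genes) and 1 in wildtype macrophage-like cells (3.31%), and for S203AKI in untreated mice 2 in T-like (1.06%), 1 in fibroblast-like (0.402%) and 1 in macrophage-like cells (0.655%). The macrophage-like count of 11 became 17 without TMM (28%). The causes were not tested.

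No replicate numbers are shared in the labels. With a block of libraries whose titles carry neighbouring numbers, whose meaning the labels do not give, the T-like count after DSS was 7 (30.6% of all genes called), and in wildtype alone 6 plasma-like (4.08%) and 2 macrophage-like members (5.94%) were called. Each block held only untreated or only DSS libraries, so it cannot adjust the DSS effect for what the numbers stand for.

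With the gate, Eif2ak3 in plasma-like against B-like cells turned to -0.20, Ddit3 against fibroblast-like cells to -0.23, and Hspa5, Pdia3 and P4hb against macrophage-like cells to -0.381, -0.125 and -0.051. After DSS in plasma-like cells it turned Eif2ak3 to -0.13, Herpud1 to -0.21 and, in wildtype, Hyou1 to -0.0274. Ddit3 against fibroblast-like cells was -0.014 without TMM. Most barcodes of the gate's plasma class lay outside the plasma-like cluster.

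Without TMM the median of all genes moved from -0.05 to -0.32 in plasma-like against T-like cells, from 0.07 to -0.20 against B-like and from -0.15 to -0.46 against fibroblast-like cells, and from 0.12 to -0.07 in macrophage-like against T-like cells. The share of called genes that were higher moved from 50.1% to 37.1%, 56.0% to 40.1% and 43.4% to 29.3% in the first 3. After DSS it moved from 52.2% to 68.0% in T-like, 48.6% to 32.7% in plasma-like and 48.5% to 74.7% in macrophage-like cells, and in wildtype from 50.6% to 36.5% in plasma-like and 32.6% to 59.6% in macrophage-like cells. Genes under about 5 CPM, such as Trib3 and Chac1 outside plasma-like cells, rest on few UMIs per library.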

Other observations

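The 2 libraries of each DSS group differed from each other in a set of luminal chaperones and in the oxidoreductase Pdia6, chosen here after the values were seen and not tested. Hsp90b1 in plasma-like cells stood at 7671 CPM in DSS-treated wildtype replicate 1 and 8322 CPM in DSS-treated S203AKI replicate 1, and at 5622 and 4861 CPM in the 2 replicates numbered 2. Sdf2l1 in T-like cells stood at 33.1 and 38.3 CPM in the former and 16.8 and 15.8 CPM in the latter, and in fibroblast-like cells at 63.6 and 59.4 CPM and at 24.8 and 22.0 CPM. Pdia6 in T-like cells stood at 175 and 184 CPM against 111.9 and 99.2 CPM, and Manf, a secreted partner of BiP, at 267 and 293 CPM against 169 and 155 CPM. Untreated T-like libraries lay between these for Sdf2l1 (24.0 to 26.5 CPM), Pdia6 (117 to 139 CPM) and Manf (193 to 227 CPM). In macrophage-like cells the order held for Hsp90b1 (1582 and 1765 CPM against 1472 and 1342 CPM) and Sdf2l1 (86.4 and 116 CPM against 65.3 and 60.8 CPM) but not for Pdia6 (376 and 430 CPM against 394 and 405 CPM). Dnajb9 in T-like cells went the other way, and the remaining chaperones were not tallied. The labels give no batch for these libraries, but the titles of the 2 DSS libraries numbered 1 here carry neighbouring numbers, as do those of the 2 numbered 2, and what these numbers stand for is not given. The cell makeup differed along the same line. A T-like cluster led by Il17a and Il17f held 23.5% (wildtype) and 42.4% (S203AKI) of T-like cells in those numbered 1. In those numbered 2 it held 10.2% and 10.6%. The fibroblast-like cluster led by Il11 and Cxcl13 held 26.1% and 29.6% against 65.0% and 62.8%. The part of makeup in these differences was not tested.

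Over the 24 other translocon, signal peptidase and glycosylation genes, DSS was followed by 5 higher and 5 lower in macrophage-like cells, with Ssr3 at 0.86 and Ssr4 at -0.92, which encode subunits of the same translocon-associated complex. In a cycling cluster with plasma cell markers, which was left out of the comparisons (528 barcodes), Edem1 stood at 217 to 364 CPM in untreated and 371 to 520 CPM in DSS libraries, and Syvn1 at 56.2 to 90.4 and 105 to 137 CPM, without overlap.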
